A study of Drosophila melanogaster with 2 samples.

Results

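The Toll receptors other than Tl and the Spätzle-like ligands other than spz were described in S2 cells, an established Drosophila melanogaster line of embryonic origin that resembles the fly's macrophage-like blood cells (hemocytes). The members were 10 named genes: the receptors 18w (Toll-2), Tollo (Toll-8), Toll-4, Toll-6, Toll-7 and Toll-9, and the ligands NT1 (spz2), spz3, spz4 and spz5. They were chosen by name, through each probe set that the platform annotation gives to that gene alone. Of the 10, 8 were measured, by 9 of the 13647 probe sets that carry a single gene name, among 11982 genes named in this way. Toll-6 and Toll-9 had no such probe set and were not measured here. The series holds 1 group of 2 arrays, replicates 1 and 2, from cells soaked in double-stranded RNA (dsRNA) against GFP, a jellyfish protein gene that flies lack, in 2 rounds of 4 days. All samples share the line and this treatment, and with neither untreated cells nor another dsRNA to set beside them, no effect of the dsRNA could be measured. The labels call the treatment duplicate without saying whether the cultures were grown apart, so the spread between the arrays may be technical.

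Toll receptors are membrane proteins with a leucine-rich outer part and an inner signalling domain, the TIR domain. Tl, the founding member, is bound by cleaved Spätzle, a cystine-knot protein, and signals through Myd88, tube and pelle to the NF-κB factors Dorsal and Dif, in dorsal-ventral patterning of the embryo and in immunity. The other Toll receptors of the fly are better known from development and the nervous system: 18w, Toll-6 and Tollo guide cell intercalation as the embryo elongates, and Toll-6 and Toll-7 act as receptors for the neurotrophin-like ligands NT1 and spz5.

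Of the 8 measured members 2 were detected, both of them receptors, Tollo and 18w. All 4 ligands and the receptors Toll-4 and Toll-7 were below the background limit on both arrays. Detected here means a signal above that limit on both arrays. The limit was the 95th percentile of the signals of 112 genes for smell and taste receptors (odorant and gustatory receptors, 125 probe sets), whose transcripts are known from sensory neurons, and it stood at 146 on replicate 1 and 136 on replicate 2. The detected share of measured members was 25%, against 49.1% of all named genes. The same 2 members passed with a 90th percentile limit (51.6% of all named genes), a 99th percentile limit (43.8%) and a limit drawn from control probe sets (55.5%). They also passed where every probe set of a gene was required (46.6%), on replicate 2 alone (50.6%) and on replicate 1 alone (49.7%). The lower limits and the single arrays could only have added members, and none was added. Requiring every probe set changes nothing for 18w and Tollo, which have 1 probe set each. Of these settings only the 99th percentile limit could have removed them. The median level of the 8 members was a signal of 46.4, against 141 over all named genes and 45.7 over the odorant and gustatory receptor genes, where the level is the mean of the 2 arrays for a gene's highest probe set. In bulk RNA a low signal from every cell cannot be told apart from a higher signal in few cells.

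Signals are linear intensities and the number of arrays limits their precision. The arrays had medians of 70.8 and 73.8 on replicates 1 and 2. The labelled cell type was checked against hemocyte markers, of which 9 of 10 were detected, the phagocytic receptor gene NimC1 being the exception. Of the markers of other cell types, 2 of 6 were detected for neurons and glia (elav and moody). For muscle it was 1 of 4 (Mf) and for fat body 1 of 4 (Lsp2). The share of all named genes was 49.1%. The glial gene moody was bright, at 2488 on replicate 1 and 1856 on replicate 2, as was Mf, at 1414 and 1710 by its brighter probe set. The median level was 2565 for the hemocyte markers, 62.3 for neurons and glia, 50.7 for muscle and 36.3 for fat body.

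Tollo, a receptor that dampens antimicrobial peptide expression in the airway epithelium, had signals of 985 on replicate 1 and 1073 on replicate 2 (probe set 1637481_at, mean 1029 ± 62.3, SD, n = 2). These were 6.75 and 7.91 times the limits of the same arrays. Of the 125 odorant and gustatory receptor probe sets, 1 was brighter on each array. The highest signals among them were 1523 on replicate 1 and 1458 on replicate 2. A percentile limit lets some of its own probe sets pass, and by the same rule 5 of these 112 genes were themselves called detected. Whether these 5 are expressed was not tested. The arrays differed by 0.12 on the log2 scale (replicate 2 over replicate 1), within the SD of 0.22 found over the 500 probe sets nearest to it in signal.

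18w, which also takes part in follicle cell migration in the ovary, had signals of 638 on replicate 1 and 834 on replicate 2 (probe set 1626509_at, mean 736 ± 139, SD, n = 2). Both values lay well above the limit, at 4.37 and 6.15 times it. Again 1 of the 125 odorant and gustatory receptor probe sets was brighter on each array. The difference between the arrays was 0.39 on the log2 scale, larger than the SD of 0.22 among the 500 probe sets of like signal, and with 1 array on each side it could not be tested.

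Toll-7, reported as a receptor for vesicular stomatitis virus in flies, had signals of 37.2 on replicate 1 and 63.8 on replicate 2 (probe set 1639160_at). Both were below the limit, at 0.255 and 0.47 times it, and 70 and 35 of the 125 odorant and gustatory receptor probe sets were brighter. Toll-4 had signals of 24.3 on replicate 1 and 60.2 on replicate 2 (probe set 1631398_at), with 87 and 42 of those probe sets brighter. Both genes thus lay below the median of the odorant and gustatory receptor probe sets on replicate 1 (42.8) and above it on replicate 2 (43.5), so their place within the background differed between the arrays. Signals at this height give only an upper bound for the transcript. Differences between the arrays are therefore not read as a change in transcript, and their source was not tested.

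**Figure D1:**
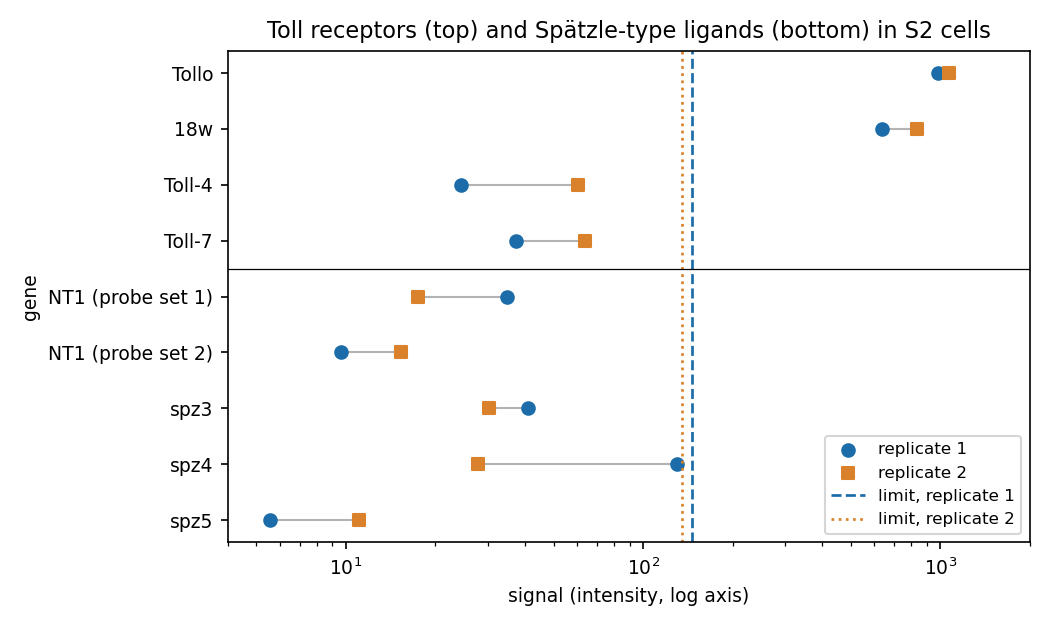
Signal (log axis) of each member's probe set on replicate 1 (circles) and replicate 2 (squares), with the background limit of each array as a vertical line; a grey bar joins the 2 arrays, and the NT1 probe sets are numbered by falling mean. Tollo and 18w lie right of both limits, at 985 and 1073 and at 638 and 834, and the other 7 probe sets lie left of them, with spz4 on replicate 1 (130) the nearest.

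None of the 4 ligand genes was detected on either array. NT1, a neurotrophin-like ligand of the nervous system, was the only member with 2 probe sets. The first, 1632244_s_at, gave 34.9 on replicate 1 and 17.4 on replicate 2. The second, 1641323_at, gave 9.65 on replicate 1 and 15.4 on replicate 2. The NT1 probe sets moved in opposite directions between the arrays, and all 4 values lay below the median of the odorant and gustatory receptor probe sets. The RefSeq gene table lists 7 transcripts and 2 older locus tags for NT1, and which of its transcripts each probe set reads was not tested.

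spz3, known as a ligand in the growth of the larval neuromuscular junction, had signals of 41.1 on replicate 1 and 30.4 on replicate 2 (probe set 1624432_at), both below the median of the odorant and gustatory receptor probe sets. spz5, the other neurotrophin-like ligand, had signals of 5.55 on replicate 1 and 11.0 on replicate 2 (probe set 1636668_at). On replicates 1 and 2, 117 and 103 of the 125 odorant and gustatory receptor probe sets were brighter than spz5.

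spz4 was read by the probe set 1629554_at, with a signal of 130 on replicate 1, just under the limit of 146, and 27.8 on replicate 2, under the median of the odorant and gustatory receptor probe sets. Both values are below the limit, so no size is given to their difference. Of the 500 probe sets of like signal, 7.4% differed by over 2-fold between the arrays, a smaller share than for the other members not detected. The log2 difference of spz4 was larger than the SD of 0.56 over those 500 probe sets, and its source was not tested. Its brighter value passed the 90th percentile limit of replicate 1 (103), while the value on replicate 2 was below the corresponding 110, so spz4 was not detected under either limit.

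**Figure D2:**
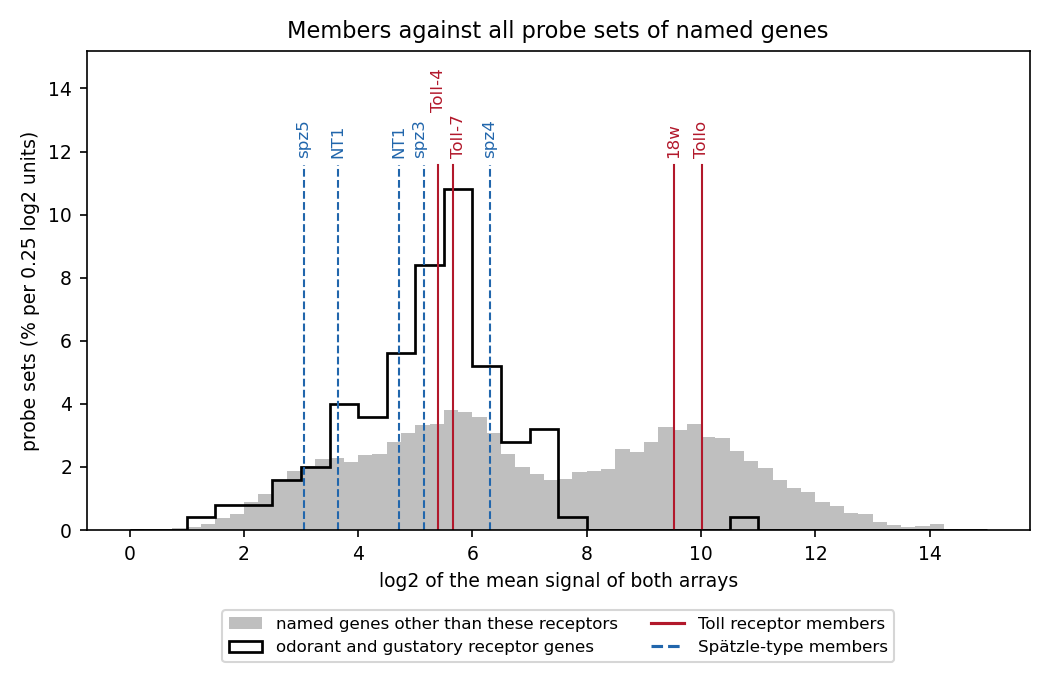
Distribution of the mean signal of both arrays (log2, signals under 1 raised to 1), in percent of each kind per 0.25 log2 units. Grey shows probe sets of named genes other than odorant and gustatory receptors, and the black outline the 125 probe sets of those receptors. Red lines mark Toll receptor members and dashed blue lines Spätzle-type members. The grey distribution has a dim and a bright hump, and 18w and Tollo fall in the bright one while the other 7 probe sets fall in the range of most odorant and gustatory receptor probe sets.

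Across the 9 member probe sets, 6 were higher on replicate 2 and the others higher on replicate 1. The signals of 3 of the 9, those of Toll-4, the first NT1 probe set and spz4, differed by over 2-fold, and all of them were among the 7 member probe sets not above the limit on both arrays. Over all probe sets, controls left out, the share differing by over 2-fold was 29% where the signal was not above the limit on both arrays and 0.318% where it was, or 18% in all. Among the 500 probe sets of like signal, this share was 26.2% for Toll-4, 56.4% for the first NT1 probe set and 7.4% for spz4. The count of 3 describes signals not above the limit, and the source of these differences was not tested. It fell to 2 with 1 added to each signal, as the first NT1 probe set lay just past the 2-fold line. Only 18w and Tollo have a difference between the arrays measured above the limit.

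**Figure D3:**
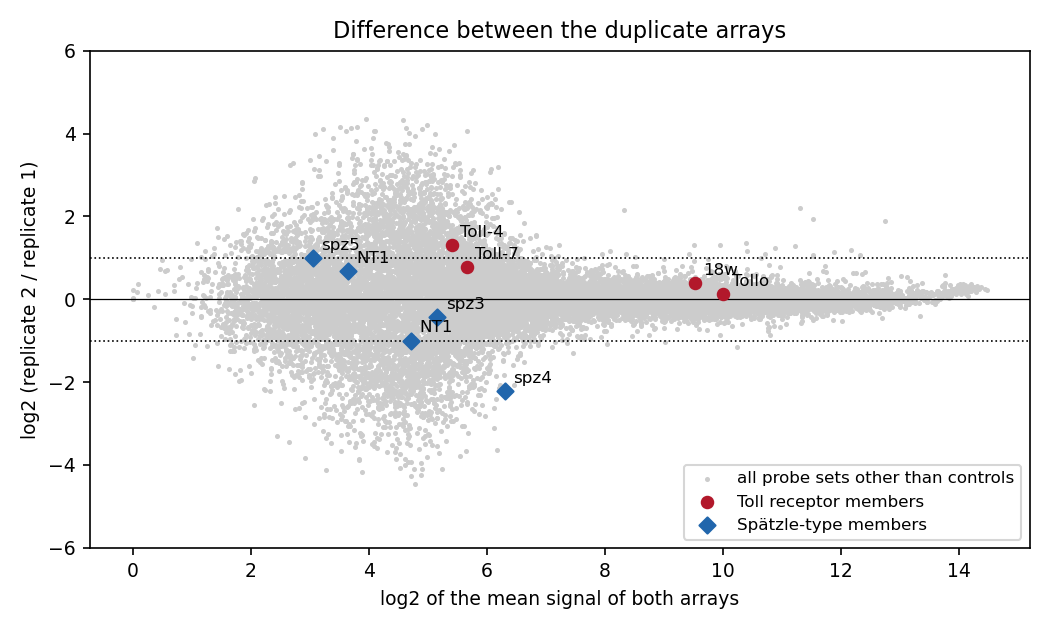
Log2 ratio of replicate 2 over replicate 1 against the log2 mean signal, for all probe sets other than controls (grey), Toll receptor members (red circles) and Spätzle-type members (blue diamonds); dotted lines mark 2-fold differences. The grey cloud is wide at low signal and narrow at high signal, where 18w and Tollo lie; the other members lie in the wide, dim part, where signals are not above the limit on both arrays.

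Of the other genes of the same families, Tl and spz were detected, while the receptors Tehao (Toll-5) and MstProx (Toll-3) and the ligand spz6 were not. The arrays thus showed 3 of 7 measured Toll receptors (Tl, 18w and Tollo) and 1 of 6 measured Spätzle-type ligands (spz) above the limit. The receptor share of 42.9% was near the 49.1% of all named genes, and the ligand share was 16.7%. The Tl probe sets differed in height: 1639321_s_at had 3192 on replicate 1 and 2768 on replicate 2, whereas 1624769_s_at had 154 and 175, little above the limits. spz was read by a single probe set, with signals of 4264 and 3872 on replicates 1 and 2. Tehao had 16.5 on replicate 1 and 32.1 on replicate 2, MstProx 67.9 and 32.9, and spz6 68.9 and 56.0.

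Of the 14 intracellular pathway genes listed, 13 were measured and all 13 were detected, by each of their 15 probe sets, against 49.1% of all named genes. The adaptor gene Myd88 had signals of 1300 on replicate 1 and 1263 on replicate 2, and the adaptor gene tub had 1629 and 1551. The kinase gene pll had 1158 and 1258. The NF-κB gene Dif was near the limit, at 194 on replicate 1 and 142 on replicate 2, and its value on replicate 2 was below the 99th percentile limit of 279. The median level of the list was a signal of 969, against 141 over all named genes.

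Outside the cell the pathway was detected in part. Of the 16 genes listed for pattern recognition, the proteases that lead to Spätzle cleavage and their inhibitors, 12 were measured. Of these, 4 were detected, or 33.3% against 49.1% of all named genes. PGRP-SA, PGRP-SD, GNBP1 and modSP had no probe set of their own and were not measured. GNBP3, which recognises fungal glucans, had signals of 830 on replicate 1 and 719 on replicate 2. The protease gene grass had 2054 and 1524. Spn27A, a serpin gene that restrains melanisation and early Toll activation, had 1368 and 1200. The protease gene ea, which cleaves Spätzle in the embryo, was just above the limit on replicate 2, at 178 and 136. Not detected were SPE, the protease that cleaves Spätzle in immunity (3.35 on replicate 1 and 5.17 on replicate 2), and the upstream protease gene psh (68.0 and 5.18).

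Of the 10 genes listed as tied to Toll receptors in other settings, 6 were measured. Of these, 5 were detected, or 83.3% against 49.1% of all named genes. They included Sarm (Ect4), which encodes a TIR-domain protein of neurons, by its probe set 1635126_a_at at 1549 on replicate 1 and 1477 on replicate 2. Of the 9 Sarm probe sets, 5 were not above the limit on both arrays. The NF-κB gene Rel had signals of 2404 on replicate 1 and 2013 on replicate 2. Cirl, a latrophilin gene whose product acts with Tollo at cell contacts, was above the limit on replicate 2 alone, at 99.1 and 174 (probe set 1628077_at), and its second probe set was below it at 58.8 and 83.5.

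**Figure D4:**
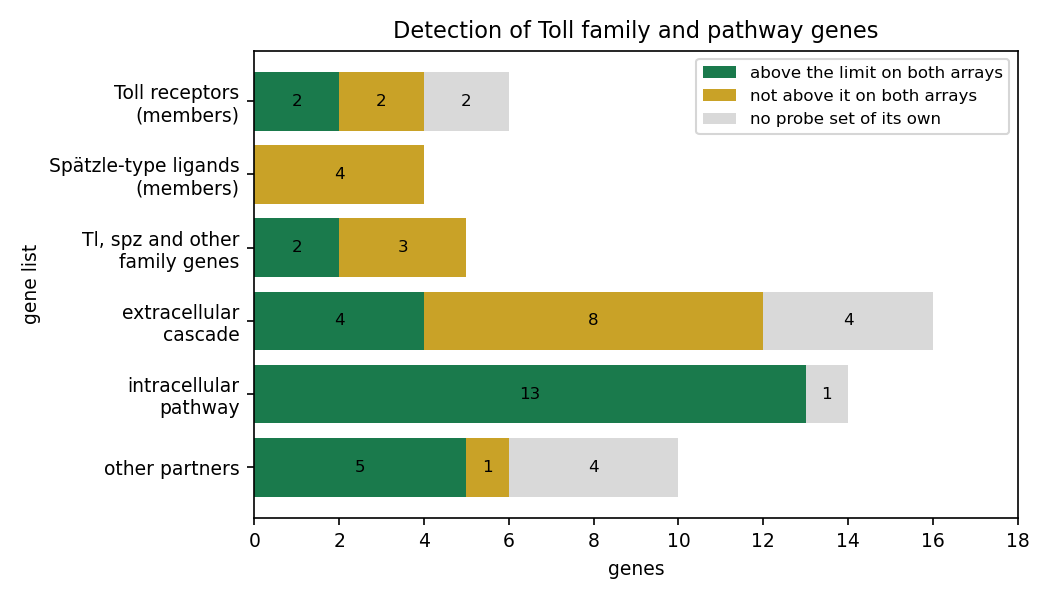
Number of genes in each list that were above the background limit on both arrays (green), measured but not above it on both arrays (yellow) or without a probe set of their own (grey). Of the measured members 2 of 4 receptors and 0 of 4 ligands were detected, against 13 of 13 genes of the intracellular pathway and 4 of 12 of the extracellular cascade.

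By position, 18w and Toll-7 lie on chromosome arm 2R, Tollo, NT1 and spz5 on 3L, and Toll-4, spz3 and spz4 on 2L. Tollo and the unmeasured Toll-6 are close neighbours, with 3 protein-coding genes between them in the release 6 gene table, and 18w and Toll-7 have 13 between them. The 8 measured members have 16 flanking places, of which 14 hold a gene measured here, and 3 of these 14 were detected, or 21.4% against 49.1% of all named genes. The detected receptors had no detected neighbour among the 3 measured, which were CG11041 beside 18w and Prx1 and Best4 beside Tollo. Best4 reached 46.9 on replicate 1 and 73.0 on replicate 2. spz4, not detected itself, lay between 2 detected genes: Cog8, a Golgi tethering gene, had signals of 617 on replicate 1 and 450 on replicate 2, and Dlg5, whose annotated span overlaps that of spz4, had 1565 and 1658. The remaining detected neighbour was Tet, beside spz5, by 1 of its 4 probe sets.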

How the data were processed

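Per the labels' protocols, total RNA of both samples was copied with an oligo-dT primer, amplified and labelled with biotin. By the same protocols it was hybridised to Affymetrix Drosophila Genome 2.0 arrays. For each probe set the authors deposited a linear intensity, without detection calls. The design text names GeneChip Operating Software 1.2 for acquisition, and how probes were summarised, scaled or filtered is not given in the sources used here. Intensities were used as deposited.

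Current symbols came from the release 6 RefSeq gene table, matched by gene identifier. The members and lists were chosen with earlier results of these data known. The genes named are all members, 5 other family genes, and in each pathway list the first 3 measured genes and up to 2 that went against its majority. NimC1 and the other single cell type markers, Dif, SPE and the neighbours were named after their values were seen. The neighbours were added after seeing the data. Log2 differences used a floor of 1, and like signal means 250 ranks to each side. With 1 group, no difference between conditions could be tested. Alternatives were other limits, probe set rules, normalizations, floors, 1 added to each signal and each array alone. Protein and promoter sequences were not used here. Python 3.11.15 with numpy 2.4.6 and pandas 2.3.3 was used.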

Additional observations from a re-analysis of the deposited data

How the results depend on the processing

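The count of 2 detected members, 18w and Tollo, was the same under all 7 alternatives run. These were the 90th and 99th percentile limits, a control-based limit, every probe set being required, quantile normalization and either array alone. The control-based limit was the brightest of 50 control probe sets (85.0 on replicate 1 and 70.3 on replicate 2). Only the 99th percentile limit and quantile normalization could have removed either gene. Both genes have 1 probe set, and the lower limits and single arrays could only have added members. Among the genes tied to Toll receptors in other settings (other partners) the count fell to 3 where every probe set was required, against 5, since genes with several probe sets then need each of them. Of 93 recomputed values, 91 stayed within set bounds and none changed sign. The bounds were 1.5 times for counts, the spread between arrays for levels and the spread of like signals for differences. Part of the 93 could not move, since a floor of 16 changes no difference whose signals both exceed it. The bounds are also wide near background, as for the level of spz4 (mean 79.0, SD 72.3), so staying within them says little there. The values outside the bounds were the count of other partners and the difference of spz5, which was 0 with a floor of 16. Both signals of spz5 lie under that floor, as do those of the second NT1 probe set. The difference of that NT1 probe set also became 0, from 0.67, but this was within its like-signal SD of 1.31. Single calls did change: ea, Dif and foxo were no longer detected with the 99th percentile limit, and Cirl passed on replicate 2 alone and under the control-based limit. The count of member probe sets over 2-fold between the arrays fell from 3 to 2 with 1 added to each signal, within the bound for counts. The 18 levels from a single array are not among the 93, since each of 2 arrays lies within the SD around their mean by construction. They ran from 638 to 834 for 18w, from 985 to 1073 for Tollo and from 27.8 to 130 for spz4. No paired analysis was possible because the series has 1 group. Signals near background limit what can be said of the 6 members not detected.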
